A study of Homo sapiens with 40 samples.

Results

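The snoRNA host genes are genes whose introns carry small nucleolar RNAs (snoRNAs) and most of whose spliced RNAs are long non-coding. They were taken here as the genes with a GENCODE 44 symbol of SNHG followed by a number, together with GAS5, ZFAS1, DANCR and EPB41L4A-AS1. This rule gave 32 genes of the 58395 in the count table. The rule uses no measured value, but it was chosen with earlier results of these data known. Of these, 28 passed the filter of at least 10 counts summed over the 40 libraries that left 28922 genes for testing. SNHG14, SNHG18, SNHG27 and SNHG28 had 0 counts in all 40 libraries, and a count of 0 allows up to 3 counts in a library by counting error alone.

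A snoRNA is cut from the intron of its host after splicing. Box C/D snoRNAs (SNORD) guide ribose methylation of ribosomal RNA, box H/ACA snoRNAs (SNORA) guide its pseudouridylation, and their relatives in Cajal bodies (SCARNA) act on spliceosomal RNAs. The spliced host RNA often holds only short open reading frames with early stop codons, so that ribosomes expose many of these RNAs to nonsense-mediated decay (NMD), and their level is known to depend on ongoing translation. Several hosts start with a terminal oligopyrimidine (TOP) tract, a C followed by a run of C and T, which is the start that ribosomal protein genes have and through which growth signals control translation.

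In the RefSeq annotation of GRCh38.p14, 31 of the 32 members overlapped at least 1 snoRNA gene, and the snoRNAs numbered 151. SNHG14, the long imprinted host on chromosome 15, held 83 of them. The 31 other members held 68, of which 38 were SNORD, 23 SNORA and 4 SCARNA. GAS5 held 11 and SNHG1 held 9. The promoter table of RefSeq held a start for 28 of the 32 members. A C at the annotated first base followed by an unbroken run of C or T of at least 5 bases in all occurred in 7 of these 28 starts (25%), compared with 1104 of 27305 starts of all genes (4.04%). The 7 members were SNHG4, SNHG5, SNHG12, SNHG18, SNHG19, SNHG32 and ZFAS1. The windows below are shown because they give the RefSeq start of the members that the results turn on. They run from 30 bases before to 30 bases from the annotated first base, on the strand of the gene. The unbroken run of C and T from the first base is in capitals.
SNHG12, chr1:28581844-28581903, minus strand: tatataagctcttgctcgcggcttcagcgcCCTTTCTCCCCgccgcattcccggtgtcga
SNHG4, chr5:139274071-139274130, plus strand: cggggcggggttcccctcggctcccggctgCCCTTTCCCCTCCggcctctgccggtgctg
SNHG32, chr6:31834886-31834945, plus strand: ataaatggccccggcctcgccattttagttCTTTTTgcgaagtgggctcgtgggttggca
SNHG5, chr6:85678704-85678763, minus strand: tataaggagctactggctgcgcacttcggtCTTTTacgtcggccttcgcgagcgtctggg
ZFAS1, chr20:49278612-49278671, plus strand: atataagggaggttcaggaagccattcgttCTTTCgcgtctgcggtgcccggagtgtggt
SNHG1, chr11:62855856-62855915, minus strand: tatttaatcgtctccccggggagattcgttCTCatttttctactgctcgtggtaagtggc
SNHG17, chr20:38435299-38435358, minus strand: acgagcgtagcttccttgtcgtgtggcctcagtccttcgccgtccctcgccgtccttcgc
GAS5, chr1:173869016-173869075, minus strand: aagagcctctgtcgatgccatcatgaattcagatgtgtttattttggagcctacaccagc
SNHG1 had a run of 3 bases, and SNHG17 and GAS5 had none at the RefSeq start, which is 1 annotated start and need not be the one used in these cells. On either strand of the region from 250 bases before to 50 bases after the start, CACGTG was found in 2 of 28 members (7.14%) and in 7.43% of all genes. TGATGNAA, the element bound by the stress factor ATF4 with its partners, was found in 0 of 28 members and in 3.67% of all genes. These matches describe the letters of the windows only.

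Expression was measured by poly(A) RNA sequencing in HEK293A, a flat-growing line of human embryonic kidney cells. Wild-type (WT) cells and PARP1-KO cells, 1 clone with a CRISPR/Cas9 deletion in PARP1, the gene of the main poly(ADP-ribose) polymerase, were left without treatment or received 0.1% DMSO, Tpc (topotecan, which traps topoisomerase 1 on DNA), OL9-119 (an inhibitor of the DNA repair enzyme TDP1) or Tpc + OL9-119. Tpc was at 100 nM for WT and 50 nM for PARP1-KO cells, OL9-119 was at 5 µM, both were given with 0.1% DMSO, and exposure lasted 5 to 5.5 h. Each of the 10 groups had 4 replicates, which the labels call biological and the study's methods technical, so p-values measure only the spread between these libraries. All PARP1-KO libraries come from the same clone, so the loss of PARP1 and other differences of this clone cannot be told apart.

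The deposited values are raw counts on genes, with totals of 3455043 to 20379777 per library. They are shown as CPM, that is, counts scaled to a common library size after TMM normalization, which are not corrected for gene length, so levels are not compared between genes. Tests used the quasi-likelihood F statistic in edgeR, and p-values were adjusted over the 28922 genes after Benjamini and Hochberg. Genes with an adjusted p below 0.01 were called DEGs. The level of PARP1 was 30.4 to 46.6 CPM in the PARP1-KO and 737 to 887 CPM in the WT libraries, with a two-sided exact permutation p = 0.0286 for each treatment, the smallest that 4 against 4 libraries can give. The kidney line markers KRT8, KRT18, VIM, CDH2, LHX1 and EYA1 were detected in all 40 libraries, while PAX2 was at 0.098 to 12.1 CPM. Of 12 markers of other cells, COL1A1 (9.10 to 43.0 CPM) and CDX2 (8.35 to 22.8 CPM) were the highest, and LUM, the next, reached 6.46 CPM. After thinning to 3455043 counts, 15418 to 20111 genes were detected in WT and 17652 to 21188 in PARP1-KO libraries, so this measure of library complexity moved with the genotype. The share of mitochondrial counts also did, at 6.38 to 7.54% in untreated WT and 3.96 to 4.77% in untreated PARP1-KO libraries, and it was 4.73 to 5.95% in WT libraries with OL9-119. Its part in the results was not tested.

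A pair of PARP1-KO libraries lay apart from the groups that their labels give. A score was formed in each library as the mean log2(CPM + 1) of the 594 genes that were higher, minus that of the 579 genes that were lower, after Tpc + OL9-119 in WT cells, with the members left out. The library labelled DMSO replicate 3 scored 0.068, while the other PARP1-KO libraries with DMSO scored -0.53 to -0.46. The library labelled Tpc + OL9-119 replicate 3 scored -0.39, while its group scored -0.21 to -0.054. Each therefore lay apart from its group and in the direction of the other. Another score used genes picked because the other PARP1-KO libraries of these groups did not overlap on them. The ranges of those libraries, -0.843 to -0.802 with DMSO and -0.0362 to -0.0141 with the combination, are thus set by this choice. A library left out of the choice tends to lie between them, so groups outside it are the reference. The Tpc + OL9-119 library scored -0.779, within the untreated PARP1-KO libraries (-0.832 to -0.691). The DMSO library scored -0.259, within the PARP1-KO libraries with Tpc (-0.34 to -0.227). The pair was kept under its labels, and the main values that use either library are followed by those without both.

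In untreated cells, 9 of the 28 tested members were higher in PARP1-KO than in WT cells and 0 were lower. Of all tested genes, 5.97% were called higher and 5.74% lower. All 9 averaged 50 or more counts in the libraries compared. Among the 12161 genes that did so over all libraries, 13.1% were called higher and 13% lower. The 9 were SNHG12, SNHG17, ZFAS1, GAS5, EPB41L4A-AS1, SNHG3, SNHG32, SNHG1 and SNHG15, with fold changes of 1.505 to 3.20. The median log2 fold change was 0.51 over the 28 members and 0.17 over all tested genes. Among genes well above the filter, it was 0.59 over the 23 members whose counts averaged 50 or more in the libraries compared and 0.0074 over the 12161 genes that did so over all libraries. Of the 28, 25 had a positive and 3 a negative log2 fold change, and 15 had an unadjusted p below 0.05. In bulk RNA, a change per cell and a change in the mix of cells cannot be told apart. All 4 PARP1-KO libraries lay above all 4 WT libraries in 10 members, compared with 11.3% of all tested genes.

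SNHG12 (chr1:28578538-28583132 in hg38, minus strand), the host of SNORD99 and of 3 SNORA genes, had the largest difference of the called members. It was at 28.5, 22.8, 16.99 and 18.4 CPM in the untreated WT and at 62.1, 80.0, 68.3 and 67.6 CPM in the untreated PARP1-KO libraries. The lowest PARP1-KO library was thus far above the highest WT library. It changed by 1.68 on the log2 scale (SE 0.19, edgeR adjusted p = 4.26e-10). Its exons overlap those of TRNAU1AP on the opposite strand over 8 bases.

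SNHG17 (chr20:38419638-38435409, minus strand) carries the SNORA71 family. It was at 63.9, 56.9, 42.3 and 46.3 CPM in the WT and at 141, 153, 141 and 133 CPM in the PARP1-KO libraries, without overlap, a log2 fold change of 1.44 (SE 0.14, edgeR adjusted p = 1.45e-11). SNHG11 (chr20:38446343-38450940), which lies next to it on the plus strand and holds SNORA71E and SNORA60, was at 8.37 to 18.6 CPM in the WT and 13.2 to 21.7 CPM in the PARP1-KO libraries, with a log2 fold change of 0.34 (95% interval -0.16 to 0.84). The groups overlapped for SNHG11, and it was not called.

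GAS5 (chr1:173858559-173868882, minus strand), named for its accumulation in growth-arrested cells, is a much studied NMD target and TOP transcript. It was at 221, 142, 153 and 131 CPM in the untreated WT and at 344, 422, 364 and 373 CPM in the untreated PARP1-KO libraries. Again the groups did not overlap, and GAS5 changed by 1.21 on the log2 scale (SE 0.13, edgeR adjusted p = 5.24e-11). Its exons overlap those of GAS5-AS1 on the opposite strand. ZFAS1 (chr20:49278178-49299600, plus strand), the host of SNORD12, SNORD12B and SNORD12C at the start of ZNFX1, was at 23.1, 11.5, 9.78 and 14.6 CPM in the WT and at 25.1, 47.2, 44.1 and 27.3 CPM in the PARP1-KO libraries. The PARP1-KO groups of ZFAS1 were more spread than those of GAS5, and its log2 fold change was 1.28 (SE 0.28, edgeR adjusted p = 0.000467). With library complexity as a covariate, the change of ZFAS1 was 0.84 and was no longer called (edgeR adjusted p = 0.0296). ZFAS1 overlaps exons of ZNFX1 on the opposite strand, and the strand setting of the counts is not stated in the sources used here.

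SNHG1 (chr11:62851978-62855953, minus strand), the host of SNORD22 and SNORD25 to SNORD31, was at 162, 134, 155 and 122.3 CPM in the untreated WT and at 245, 284, 250.4 and 242 CPM in the untreated PARP1-KO libraries, a log2 fold change of 0.83 (SE 0.12, edgeR adjusted p = 1.48e-07). The direction was opposite to that of its chromosome, since the median log2 fold change of 688 genes of chromosome 11 that averaged 50 or more counts was -0.51. SNHG32 (chr6:31834608-31839766, plus strand), the host of SNORD48 and SNORD52, was at 90.8, 98.2, 92.2 and 73.7 CPM in the WT and at 149, 186, 174 and 184 CPM in the PARP1-KO libraries, with a log2 fold change of 0.97 (SE 0.11, edgeR adjusted p = 1.25e-09).

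EPB41L4A-AS1, the host of SNORA13, rose from 33.5 ± 8.95 to 73.8 ± 7.16 CPM (SD, n = 4), a log2 fold change of 1.13 (SE 0.19). Its exons overlap those of EPB41L4A on the opposite strand. SNHG3, the host of SNORA73A and SNORA73B, rose from 20.41 ± 6.07 to 42.2 ± 8.29 CPM, a log2 fold change of 1.05 (SE 0.21). SNHG3 shares exon bases with RCC1 on the same strand, and reads in these bases cannot be assigned to 1 of the genes alone. SNHG15, the host of SNORA9, rose from 82.8 ± 19.7 to 124.8 ± 10.2 CPM, a log2 fold change of 0.59 (SE 0.16, edgeR adjusted p = 0.00482). Of the 9 calls, that of SNHG15 alone was lost when single libraries were left out, without PARP1-KO replicate 2 (0.53), WT replicate 2 (0.57) or WT replicate 4 (0.46), and its largest adjusted p was then 0.0409.

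With DMSO, 13 of the 28 members were higher in PARP1-KO cells and 0 were lower. Of all tested genes, 6.67% were called higher and 5.75% lower. Among the 12161 genes that averaged 50 or more counts, as all 13 did, 14.2% were called higher and 13% lower. Without the pair of libraries that lay apart, 11 members were higher and 0 lower, where 5.08% of all tested genes were called higher. The 13 held the 9 members called without treatment and, in addition, SNHG10, SNHG4, SNHG5 and SNHG29. The median log2 fold change was 0.89 over the members, or 0.73 without the pair, and 0.19 over all tested genes. All PARP1-KO libraries lay above all WT libraries in 12 members, compared with 12.3% of all tested genes. Without the pair these were 14 members and 16.4%, where 3 libraries against 4 overlap less easily.

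Among the 9, the log2 fold change with DMSO ranged from 0.74 for SNHG15 to 1.57 for SNHG17, or from 0.65 to 1.59 without the pair. For GAS5 it was 1.46 (SE 0.13), or 1.43 without the pair, and for SNHG1 it was 1.05 (SE 0.12), or 0.92 without the pair. In the WT libraries with DMSO, SNHG1 was at 155, 128.3, 143 and 112 CPM. In the PARP1-KO libraries with DMSO it was at 255, 257, 352 and 251 CPM, where 352 belongs to the library labelled replicate 3. The other 3 PARP1-KO libraries lay close together and above all WT libraries. EPB41L4A-AS1 was at 30.6, 33.02 and 35.1 CPM in WT replicates 1, 2 and 4 and at 79.4 CPM in WT replicate 3, which reached the level of the PARP1-KO libraries (71.1 to 79.4 CPM). Its log2 fold change with DMSO was 0.76 (SE 0.19), or 0.74 without the pair, and without WT replicate 1, 2 or 4 in turn it was 0.61, 0.64 and 0.67 and no longer called.

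SNHG10, the host of SCARNA13, was at 4.69, 0.317, 0.599 and 2.51 CPM in the WT and at 7.59, 7.19, 8.52 and 8.20 CPM in the PARP1-KO libraries with DMSO. The groups did not overlap, and the log2 fold change was 1.91 (SE 0.46, edgeR adjusted p = 0.00153), or 1.87 without the pair. The large error goes with low counts, 61.5 on average over the 8 libraries, and without WT replicate 2 or 3 the call was lost at 1.55 and 1.61. Without the WT libraries of low complexity it was 1.05 (edgeR adjusted p = 0.0174). SNHG4, the host of SNORA74A and SNORA74D at the start of MATR3, was at 10.7, 9.92, 0.240 and 8.61 CPM in the WT and at 17.6, 16.9, 20.2 and 14.96 CPM in the PARP1-KO libraries. Its log2 fold change was 1.22 (SE 0.34), and the call was lost without the pair at 1.15 (edgeR adjusted p = 0.0236) and without WT replicate 3, the lowest library, at 0.83, as well as without PARP1-KO replicate 1, 2 or 3 at 1.202, 1.22 and 1.15. SNHG5, the host of SNORD50A and SNORD50B, had a log2 fold change of 0.49 (SE 0.14), and the call was lost without the pair at 0.43 (edgeR adjusted p = 0.0305) and, when length and GC entered the fit as offsets, at 0.14 (edgeR adjusted p = 0.632). SNHG29, the host of SNORD49A, SNORD49B and SNORD65, had a log2 fold change of 0.45 (SE 0.13), or 0.50 without the pair. Leaving out single libraries ended the calls of SNHG5 (without PARP1-KO replicate 2, 3 or 4 or WT replicate 1, 2 or 4) and SNHG29 (without replicate 1, 2 or 4 of either genotype). The groups overlapped in CPM for EPB41L4A-AS1, SNHG5 and SNHG29.

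**Figure D1:**
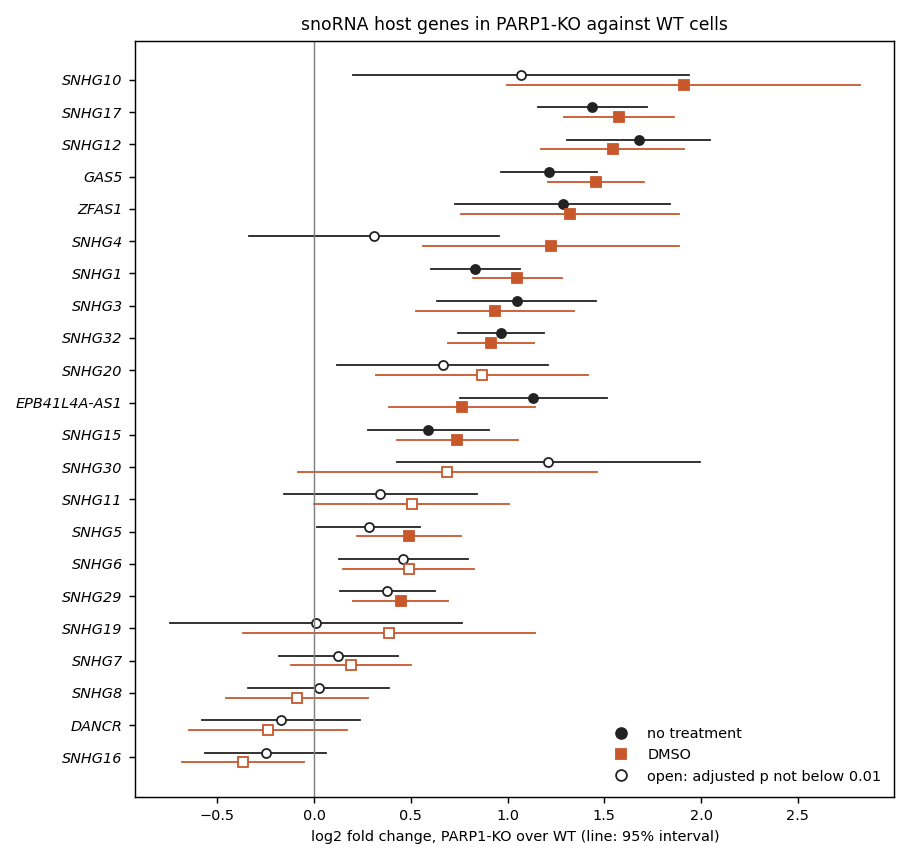
Log2 fold change of PARP1-KO over WT cells for the 22 members that averaged 50 or more counts in the 40 libraries, without treatment (black circles) and with DMSO (orange squares), with 4 libraries per group and lines for the 95% interval. Filled symbols have an adjusted p below 0.01, and the 9 and 13 filled symbols all lie to the right of 0.

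Members that were not called also differed among themselves. SNHG16, the host of SNORD1A, SNORD1B and SNORD1C, had a log2 fold change of -0.25 (95% interval -0.57 to 0.063) without treatment and -0.37 (-0.68 to -0.052) with DMSO, or -0.44 (-0.78 to -0.098) without the pair. DANCR, the host of SNORA26, was at 28.3, 23.4, 15.1 and 16.1 CPM in the untreated WT and at 16, 20.1, 20.03 and 17.6 CPM in the untreated PARP1-KO libraries. Its groups overlapped, and the log2 fold change was -0.17 (-0.58 to 0.24). For SNHG7, the host of SNORA17A and SNORA17B, it was 0.13 (-0.18 to 0.43), and for SNHG8, the host of SNORA24, it was 0.023 (-0.34 to 0.39). SNHG6, the host of SNORD87, had a log2 fold change of 0.46 (0.13 to 0.80, edgeR adjusted p = 0.0501) without treatment and 0.49 with DMSO, or 0.45 without the pair. In untreated cells, the intervals of SNHG7, SNHG8 and DANCR lay below 0.5, while that of SNHG6 did not.

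The 6 tested members SNHG9, SNHG21, SNHG22, SNHG25, SNHG26 and SNHG31 averaged under 50 counts, and edgeR called 0 of them in any comparison. For SNHG21 in untreated cells, the 95% interval of -1.76 to 2.40 leaves even large changes undetectable at this depth. With DMSO, SNHG9 was at 1.37 to 4.68 CPM in WT and 5.03 to 5.72 CPM in PARP1-KO libraries, without overlap and without being called. SNHG22 had 0 counts in the 4 WT libraries with DMSO and 3 to 8 counts in the 4 PARP1-KO libraries with DMSO.

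Across all treatments, the 20 PARP1-KO libraries lay above the 20 WT libraries in 3 members, GAS5, SNHG3 and SNHG32, compared with 1.59% of all tested genes. GAS5 was at 111, 188 and 269.9 CPM (lowest, median and highest) in WT and at 339, 402 and 434 CPM in PARP1-KO libraries. SNHG3 was at 10.3, 18.8 and 30.3 CPM in WT and at 33.1, 44.9 and 59.8 CPM in PARP1-KO libraries. For SNHG32, the highest WT library (148.5 CPM, Tpc + OL9-119 replicate 2) came close to the lowest PARP1-KO library (148.8 CPM). GAS5 averaged 162, 142, 187, 211 and 234 CPM in WT cells without treatment and with DMSO, Tpc, OL9-119 and Tpc + OL9-119, and 376, 389, 391, 404 and 406 CPM in PARP1-KO cells. In the same order, SNHG1 averaged 143, 134, 237, 243.5 and 309.9 CPM in WT and 255, 279, 305, 294 and 333 CPM in PARP1-KO cells. The genotypes were apart for GAS5 under every treatment, whereas SNHG1 in WT cells with the combination reached the levels of PARP1-KO cells. ZFAS1 averaged 12.6 to 19.2 CPM over the 5 WT and 27.8 to 35.9 CPM over the 5 PARP1-KO groups. EPB41L4A-AS1 averaged 33.5 to 48.8 CPM and 73.8 to 79.9 CPM, respectively. The ranges of DANCR overlapped, at 19.3 to 24.2 CPM in WT and 16.9 to 20.5 CPM in PARP1-KO cells. The other called members also had their highest WT group mean below their lowest PARP1-KO group mean. Examples are SNHG12 with 40.02 against 69.5 CPM and SNHG15 with 114.7 against 124.8 CPM. This order was not particular to called members, since SNHG6 (67.1 against 89.7 CPM) and SNHG30 (12.3 against 17.3 CPM) had it without being called. The share of all tested genes with this order is not given here. The members together took 0.111 to 0.197% of the counts in WT and 0.198 to 0.265% in PARP1-KO libraries.

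Properties that the rule did not use were counted over the 13 members called higher in either comparison of the genotypes, where 8.15% of all tested genes were. Without the pair, 11 members and 7.25% were. The 13 were 5 of 10 tested members with only SNORD genes, 5 of 11 with only SNORA genes, 2 of 3 with both (GAS5 and SNHG12) and 1 of 4 with only a SCARNA gene (SNHG10). Of the tested members with a TOP-like start, 5 of 6 were called, SNHG4, SNHG5, SNHG12, SNHG32 and ZFAS1, whose starts are shown above, while SNHG19 was not. Without the pair, SNHG4 and SNHG5 were lost and 3 of the 6 were called. Of the 18 with another start, 7 were called, and the 7 were called without the pair too. Among them were SNHG17 and GAS5, which have no run of C and T at the RefSeq start. GAS5 is nevertheless known as a TOP transcript, and its RefSeq start lies outside the GENCODE span that was counted. The sets therefore divide the members by the RefSeq start only and not by whether they are TOP transcripts. The difference between these sets was not tested. Of the 20 members whose exons overlap those of another gene, 10 were called, and of the 8 without overlap 3 were called, SNHG1, SNHG15 and SNHG17. Without the pair these were 8 and 3.

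Library complexity moved with the genotype, and the difference of the members was also measured with it held. With complexity as a covariate, 9 members were higher without treatment, 8 of them among the 9 above, and 9 were higher with DMSO, 8 of them among the 13. The calls of SNHG3, SNHG4, SNHG10, SNHG29 and ZFAS1 with DMSO were lost. Without the 8 WT libraries that had fewer than 17000 genes at equal depth, 13 and 14 members were higher, respectively, and 0 were lower. The shares of all tested genes called in these fits are not given here, so the counts are not read as particular to the members.

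The members were set beside 5 lists of related genes, compiled by hand with earlier results of these data known. Of all tested genes, 5.97% were called higher and 5.74% lower without treatment, and 6.67% and 5.75% with DMSO. Without the pair, the shares with DMSO were 5.08% and 4.38%. Among the 12161 genes that averaged 50 or more counts, they were 13.1% and 13% without treatment and 14.2% and 13% with DMSO. Of 20 mRNAs known as NMD targets, 12 were higher and 0 lower in untreated PARP1-KO cells, with a median log2 fold change of 0.61, and 14 were higher and 0 lower with DMSO, with a median of 0.72, as many as without the pair. The largest untreated changes were those of GADD45B (2.24, SE 0.13) and DDIT3 (1.86, SE 0.18). Both are also stress-response genes, as are many others of this list. Of 22 NMD factors, 8 were higher and 0 lower in either comparison, with medians of 0.25 and 0.30, and 6 were higher with DMSO without the pair. The kinase SMG1, whose transcript resembles several pseudogene copies and is therefore uncertain, had 1.17 (SE 0.22), and the helicase gene DHX34 had 0.87 (SE 0.20). Of 20 proteins that build or form snoRNPs, 5 were higher and 0 lower without treatment, and 6 were higher and 1 lower with DMSO, or 5 and 1 without the pair. The assembly factors NUFIP1 (0.97, SE 0.19) and ZNHIT6 (0.72, SE 0.12) were the highest, and GAR1, a core protein of H/ACA particles, was lower with DMSO (-0.67, SE 0.17, or -0.68 without the pair).

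Of 53 protein-coding hosts of snoRNAs, 10 were higher and 8 lower without treatment, with a median log2 fold change of 0.063, and 9 were higher and 5 lower with DMSO (8 and 4 without the pair), with a median of 0.093. WDR43 (0.84, SE 0.11) and GNL3 (0.81, SE 0.098), nucleolar proteins, were the highest, and the chaperone HSPA8 (-0.78, SE 0.12) and the ribosomal protein RPL7A (-0.77, SE 0.13) were the lowest without treatment. Of 18 other long non-coding RNAs, 2 were higher and 2 lower without treatment, with PVT1 at 1.65 (SE 0.21) and MIR17HG at -1.26 (SE 0.24). With DMSO, 3 were higher and 0 lower, with or without the pair, and MIR17HG was at -0.64 (edgeR adjusted p = 0.0471). Over the 392 long non-coding RNAs that averaged 50 or more counts, 22 of which are members, 37 were higher and 23 lower without treatment, with a median of 0.064. With DMSO, 52 were higher and 17 lower, with a median of 0.072, or 40 and 14 without the pair. The difference between these lists and the members was not tested.

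**Figure D2:**
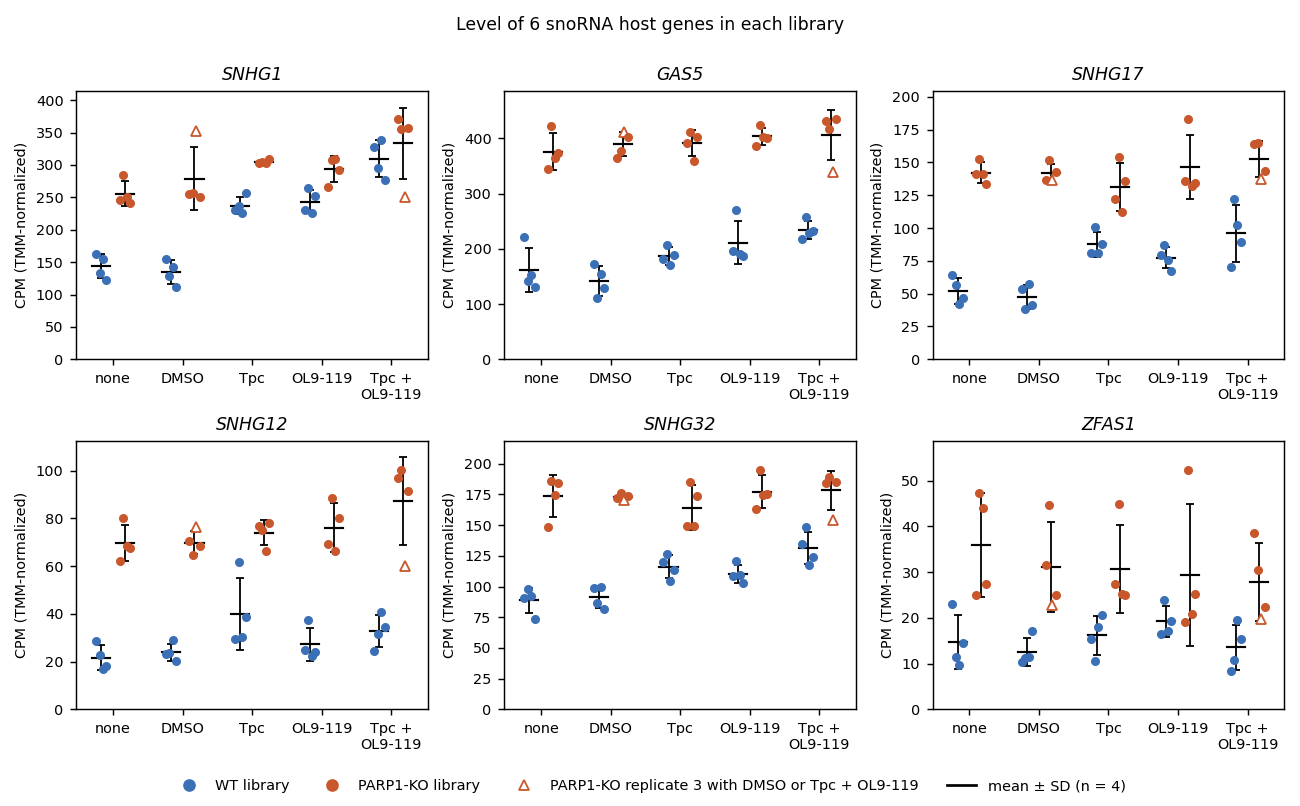
CPM of 6 members in each library (points) by treatment, with the mean and SD of 4 libraries in black, WT in blue and PARP1-KO in orange. Open triangles are the PARP1-KO libraries labelled replicate 3 with DMSO and with Tpc + OL9-119, where SNHG1 was at 352 and 250.6 CPM and outside the range of the rest of the group.

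Each treatment was set against the untreated cells of its genotype. DMSO alone changed 0 members in WT cells (edgeR, 2 with an unadjusted p below 0.05, 0 by DESeq2), where 0% of all tested genes were called. In PARP1-KO cells it also changed 0 members (edgeR, 0 with an unadjusted p below 0.05, 0 by DESeq2), where 0% were called, and the count was 0 without the pair as well.

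Tpc raised 3 members in WT cells, SNHG1, SNHG12 and SNHG17, and lowered 0, where 0.553% of all tested genes were called higher and 0.304% lower. Among the 12161 genes that averaged 50 or more counts, 1.27% were called higher and 0.724% lower. SNHG1 was at 231, 237, 225 and 257 CPM with Tpc, above all 4 untreated libraries (122.3 to 162 CPM), and changed by 0.73 (SE 0.12, edgeR adjusted p = 3.5e-05). SNHG17 was at 81.0, 100.8, 81.1 and 87.6 CPM with Tpc, also above the untreated libraries (42.3 to 63.9 CPM), and changed by 0.74 (SE 0.14, edgeR adjusted p = 0.000751). SNHG12 was at 29.4, 61.9, 30.2 and 38.6 CPM with Tpc and at 16.99 to 28.5 CPM without. Its log2 fold change of 0.88 (SE 0.19, edgeR adjusted p = 0.00274) rested in part on replicate 2 with Tpc, and without that library it was 0.59 (edgeR adjusted p = 0.0804). Without untreated replicate 3, SNHG17 (0.65) and SNHG12 (0.78) were not called, and without untreated replicate 4 SNHG12 (0.81) was not called. All libraries with Tpc lay above all untreated ones in 5 members, compared with 3.25% of all tested genes. SNHG20, the host of a SCARNA, was among the 5 at 0.82 (0.27 to 1.37) without being called.

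OL9-119 raised 1 member in WT cells, SNHG1, and lowered 0, where 0.449% of all tested genes were called higher and 0.833% lower. SNHG1 was at 231, 265, 227 and 252 CPM with OL9-119, with a log2 fold change of 0.76 (SE 0.12, edgeR adjusted p = 1.18e-05). This was close to its change after Tpc. SNHG17 was at 79.2, 87.1, 75.6 and 67.6 CPM, above the untreated libraries, with a log2 fold change of 0.56 (0.28 to 0.84) that missed the threshold (edgeR adjusted p = 0.0148). SNHG4 had -0.73 (-1.39 to -0.062) and SNHG19, the host of SNORD60, had -0.93 (-1.71 to -0.16), and neither was called. Without untreated replicate 1, 3 members were called. All libraries with OL9-119 lay above all untreated ones in 3 members, compared with 2.99% of all tested genes.

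Tpc + OL9-119 raised 4 members in WT cells, SNHG1, SNHG17, SNHG32 and GAS5, and lowered 0. Of all tested genes, 2.07% were called higher and 2% lower. Among the 12161 genes that averaged 50 or more counts, 4.82% were called higher and 4.61% lower. SNHG1 was at 328, 295, 339 and 277 CPM, its highest levels in WT cells and with a lowest library above every WT library of the other 4 treatments. This was a log2 fold change of 1.11 (SE 0.12, edgeR adjusted p = 2.86e-10), or 2.16-fold. SNHG17 was at 70.2, 121.9, 102.4 and 89.2 CPM and changed by 0.87 (SE 0.14, edgeR adjusted p = 1.87e-05). SNHG32 was at 135, 149, 118 and 124.1 CPM, above the untreated libraries (73.7 to 98.2 CPM), and changed by 0.57 (SE 0.11, edgeR adjusted p = 0.000404). Its call was lost at 0.48 without the WT libraries of low complexity (edgeR adjusted p = 0.035) and at 0.56 with only the libraries compared in the fit (edgeR adjusted p = 0.0193). GAS5 was at 218, 257, 228 and 233 CPM, which overlapped the untreated libraries (131 to 221 CPM), and changed by 0.53 (SE 0.13, edgeR adjusted p = 0.00324). Its call was lost without untreated replicate 2, 3 or 4 or combination replicate 2, at 0.44 to 0.49. Among members that were not called, negative values included those of SNHG10 (-0.43, -1.33 to 0.48), SNHG16 (-0.19, -0.50 to 0.13) and SNHG6 (-0.17, -0.51 to 0.17). The groups did not overlap, in the same direction, in 3 members, compared with 3.75% of all tested genes.

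All 5 members raised by a drug in WT cells, SNHG1, SNHG12, SNHG17, SNHG32 and GAS5, were among those higher in PARP1-KO cells, and these comparisons share the untreated WT libraries. Adding OL9-119 to Tpc called 0 members in WT cells (edgeR, 3 with an unadjusted p below 0.05, 0 by DESeq2), where 0.18% of all tested genes were called. For SNHG1, Tpc + OL9-119 and Tpc alone gave 309.9 ± 28.7 and 237 ± 13.6 CPM (SD, n = 4). The lowest library of the combination lay above the highest with Tpc alone. The groups did not overlap in this direction in 3 members and in the other direction in 1, compared with 1.88% and 2.61% of all tested genes.

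The related lists were also counted after the combination in WT cells. Of all tested genes, 2.07% were called higher and 2% lower. Among the 12161 genes that averaged 50 or more counts, these shares were 4.82% and 4.61%. Of 20 NMD target mRNAs, 9 were higher and 0 lower, with ATF3 (1.83, SE 0.11) and SLC7A11 (2.45, SE 0.22) among them. Of 53 protein-coding snoRNA hosts, 1 was higher (TAF1D, 0.60, SE 0.15) and 11 were lower, with HSPA8 (-1.71, SE 0.13) and RPL7A (-0.67, SE 0.13) as the lowest, and their median was -0.30. Of the snoRNP proteins, ZNHIT6 (0.49, SE 0.12) was higher and the core proteins NHP2 (-0.60, SE 0.13) and FBL (-0.53, SE 0.13) were lower. Of the NMD factors, 0 of 22 were called. The difference between the lists was not tested.

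**Figure D3:**
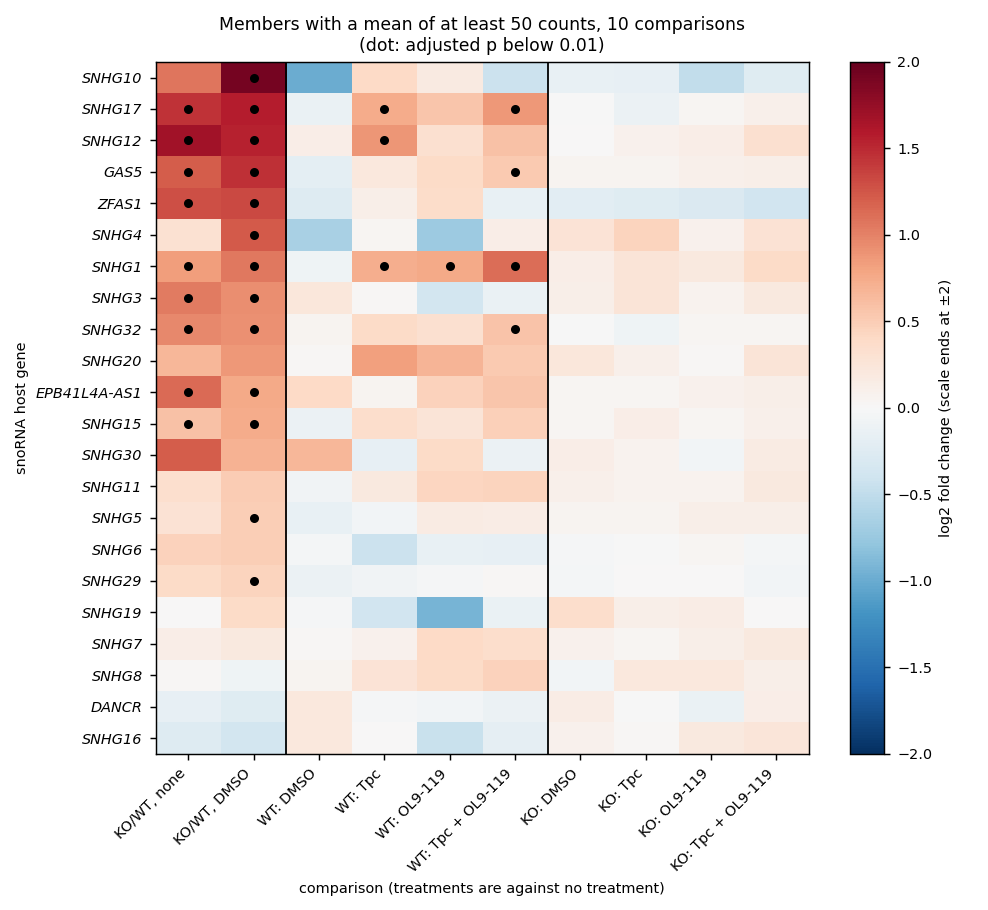
Log2 fold change (colour, scale ended at 2 in either direction) of the 22 members that averaged 50 or more counts, in 10 comparisons with every library under its label. Dots mark an adjusted p below 0.01, of which there are 9 and 13 in the comparisons of genotypes, 0, 3, 1 and 4 for DMSO, Tpc, OL9-119 and Tpc + OL9-119 in WT cells, and 0 in PARP1-KO cells.

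In PARP1-KO cells, edgeR and DESeq2 called 0 members after Tpc, OL9-119 or Tpc + OL9-119, where edgeR called 0.0138%, 0.00346% and 0% of all tested genes. An unadjusted p below 0.05 in edgeR was found for 1, 0 and 1 members, in both cases SNHG1. SNHG1 was at 245, 284, 250.4 and 242 CPM without treatment, at 304, 305, 302 and 309 CPM with Tpc and at 267, 308, 309 and 292 CPM with OL9-119. All libraries with Tpc thus lay above all untreated ones, which held for 2 members and for 2.44% of all tested genes. In these cells SNHG1 had a log2 fold change of 0.26 (0.029 to 0.48, edgeR adjusted p = 0.817) for Tpc and 0.20 (-0.025 to 0.43) for OL9-119.

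With Tpc + OL9-119, SNHG1 was at 370, 355 and 357 CPM in PARP1-KO replicates 1, 2 and 4 and at 250.6 CPM in the library labelled replicate 3. The latter lay within the range of the untreated libraries. Its log2 fold change was 0.38 (0.16 to 0.61) with all libraries and 0.48 (0.27 to 0.69, edgeR adjusted p = 0.0394) without the pair. SNHG12 was at 96.9, 100.5, 60.2 and 91.4 CPM, where 60.2 CPM belongs to the same library, and its log2 fold change was 0.33 (-0.025 to 0.68), or 0.45 (0.088 to 0.82) without the pair. SNHG17 (0.10, -0.17 to 0.38), SNHG32 (0.040, -0.18 to 0.26) and GAS5 (0.11, -0.13 to 0.35) had intervals that reached no higher than 0.38. Without the pair these were 0.13 (-0.17 to 0.43), 0.087 (-0.15 to 0.32) and 0.17 (-0.087 to 0.43). Without the pair, edgeR called 0 members after Tpc, OL9-119 or the combination, where 0.00348%, 0.00697% and 0.00348% of all tested genes were called higher and 0.0627%, 0.0139% and 0.0244% lower. Adding OL9-119 to Tpc called 0 members in PARP1-KO cells (edgeR, 0 with an unadjusted p below 0.05, 0 by DESeq2), where 0% of all tested genes were called.

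The difference of the responses between the genotypes was tested directly. It is also a difference of doses wherever Tpc was given. edgeR called 0 members for Tpc, OL9-119 and Tpc + OL9-119, where 0.1%, 0.0657% and 0.27% of all tested genes were called, and 4, 3 and 4 members had an unadjusted p below 0.05. DESeq2 called 0, 0 and 1. For SNHG1, the response of PARP1-KO minus that of WT cells was -0.47 (-0.79 to -0.15) for Tpc, -0.56 (-0.88 to -0.24) for OL9-119 and -0.73 (-1.05 to -0.41, edgeR adjusted p = 0.0145) for the combination, or -0.61 (-0.91 to -0.32, edgeR adjusted p = 0.0391) for the combination without the pair. For SNHG17 it was -0.86 (-1.25 to -0.46, edgeR adjusted p = 0.0527) for Tpc and -0.77 (-1.16 to -0.38, edgeR adjusted p = 0.0587) for the combination. Without the pair these were -0.88 (-1.27 to -0.48, edgeR adjusted p = 0.0435) and -0.72 (-1.13 to -0.305, edgeR adjusted p = 0.138). These intervals lay below 0, but none passed the adjustment over all genes at 0.01.

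**Figure D4:**
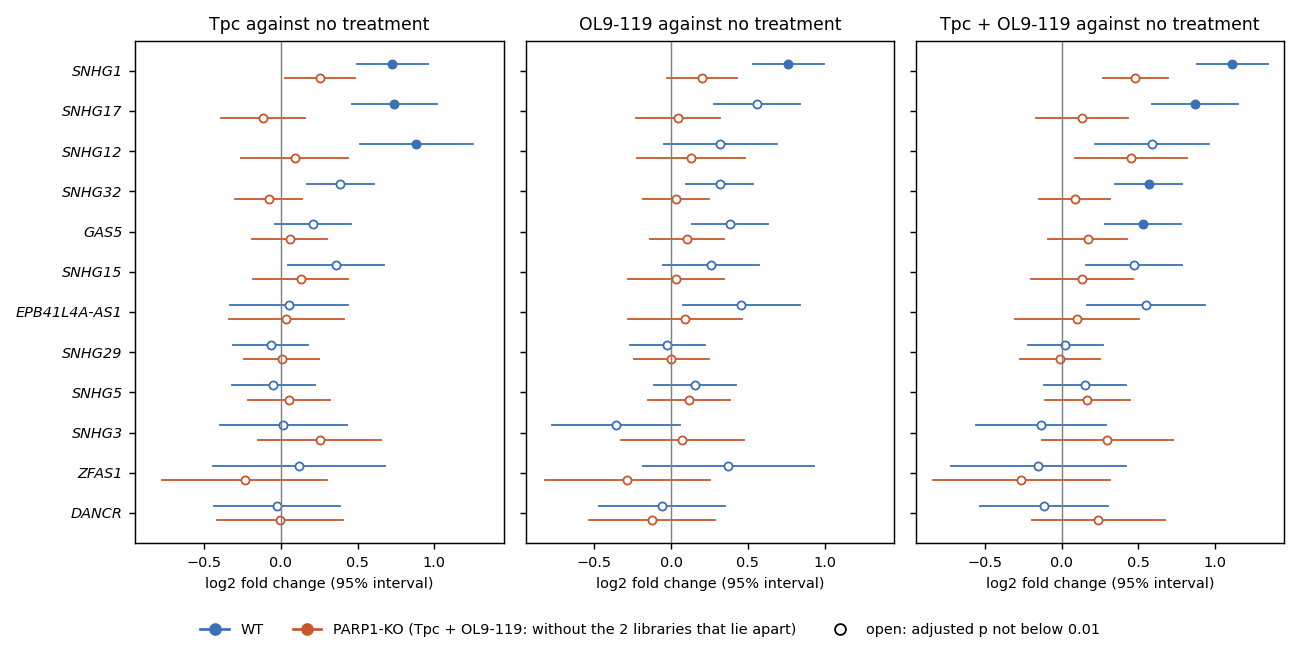
Response of 12 members to the 3 drug treatments, as the log2 fold change over untreated cells with its 95% interval, for WT (blue) and PARP1-KO cells (orange). The PARP1-KO values for the combination leave out the 2 libraries that lay apart. Filled symbols, with an adjusted p below 0.01, occur for WT cells only, with SNHG1 at 0.73, 0.76 and 1.11.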

How the data were processed

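RNA from WT and PARP1-KO HEK293A cells was sequenced from directional poly(A) libraries. According to the study's methods and the submitters' processing notes, the authors aligned the reads to hg38 (Ensembl annotation) with STAR 2.7.8, counted them per gene with its GeneCounts option and deposited raw counts in 1 table, without normalization or pooling. The notes also name FastQC 0.11.9 and Picard 2.26.6. The strand column kept is not given in the sources used here, so reads of overlapping genes may not be told apart. All 40 columns were matched to samples by name, and 0 columns were left over.

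The 28922 genes whose counts summed to 10 or more were tested with edgeR 4.0.16 in R 4.3.3 (TMM, glmQLFit with legacy = TRUE, glmQLFTest) in 1 fit with 1 group per condition. Untreated cells were the comparator, the threshold was an adjusted p of 0.01 after Benjamini and Hochberg, and the SE was the log2 fold change divided by the square root of F, with 95% intervals of 1.96 SE. The 15 comparisons were of genotypes (without treatment and with DMSO), of treatments within genotypes, and of 3 responses between genotypes. Alternatives were DESeq2 1.42.0, RLE normalization, other filters, libraries, thresholds and comparators, the replicate number and the name prefix as terms, offsets for length and GC content, and each library left out. Library complexity as a covariate, and leaving out 8 WT libraries of low complexity or the pair of PARP1-KO libraries that lay apart, were added after seeing the data. The test was tried on simulated data. Symbols, positions and exon overlaps came from GENCODE 44, and snoRNAs and starts from RefSeq (GRCh38.p14).

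The members and lists were chosen with earlier results of these data known. By the rule for named genes, levels were given for GAS5, ZFAS1, DANCR, EPB41L4A-AS1, SNHG1 and the members called that averaged 50 or more counts, of which the 6 highest and 6 lowest per comparison could be named. Listed genes were named from at most the 2 highest and 2 lowest called in a list. SNHG6, SNHG7, SNHG8, SNHG11, SNHG16, SNHG19, SNHG20 and the members of low counts were named after their values were seen. Total counts set the precision, and intervals for single libraries cover counting error only.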

Additional observations from a re-analysis of the deposited data

Results flagged for a closer look

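In each group of 4 libraries, the highest or lowest library was marked when its gap to the nearest other, divided by the range of the group, exceeded 0.829. Of 150 groups tested, 15 were marked, and chance marks about 1 in 20. Some of these marks came from the PARP1-KO libraries that lay apart from their labels with other genes too. SNHG1 was at 352 CPM in the library labelled DMSO replicate 3, with 251 to 257 in the rest of the group, and at 250.6 CPM in the library labelled Tpc + OL9-119 replicate 3, with 355 to 370 in the rest. The latter library was also marked for SNHG32, at 154 CPM with 185 to 189 in the rest.

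WT replicate 2 with OL9-119 was marked for GAS5 (269.9 CPM, 188 to 196 in the rest), for SNHG12 (37.4 CPM, 22.5 to 24.9) and for the summed level of the members (1915 CPM, 1509 to 1536). WT replicate 3 with DMSO was marked for EPB41L4A-AS1 (79.4 CPM, 30.6 to 35.1) and SNHG5 (109.9 CPM, 69.6 to 75.04). Both libraries were among the 8 WT libraries with fewer than 17000 genes at equal depth, as were those marked for SNHG3 below.

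The other marks in WT cells were SNHG3 without treatment in replicate 1 (29.4 CPM, 16.5 to 18.5 in the rest), SNHG3 with Tpc + OL9-119 in replicate 2 (10.3 CPM, 20.9 to 22.4), SNHG4 with OL9-119 in replicate 4 (9.63 CPM, 5.86 to 6.47) and ZFAS1 with DMSO in replicate 4 (17.1 CPM, 10.5 to 11.5). In PARP1-KO cells they were SNHG15 without treatment in replicate 2 (139.9 CPM, 118 to 121.5), SNHG17 with OL9-119 in replicate 2 (183 CPM, 132 to 136) and ZFAS1 with Tpc in replicate 2 (44.9 CPM, 24.97 to 27.4).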

How the results depend on the processing

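No member changed direction where it was called. Of the log2 fold changes of called members, 342 kept their side of the threshold under the other settings and 26 lost it, and 208 kept it and 32 lost it when a single library was left out. GAS5, SNHG1, SNHG12, SNHG17 and SNHG32 in both comparisons of genotypes, SNHG1 in all 3 drug comparisons in WT cells and SNHG17 with the combination were called under every setting run.

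Of the counts of members called, 169 stayed within 1.5 times the value given and 20 did not. Many of those that stayed were counts of 0 that remained 0. With only the libraries compared in the fit, 8 members in place of 13 were called between genotypes with DMSO, 2 in place of 4 after Tpc + OL9-119 in WT cells and 1 in place of 0 after it in PARP1-KO cells. For OL9-119 in WT cells the count of 1 became 3 with DMSO as the comparator, and 2 each with DESeq2, length and GC offsets, no filter, a threshold of 0.05, the replicate block or without the WT libraries of low complexity. For the difference of the Tpc responses the count of 0 became 1 with DMSO as the comparator and 1 without those WT libraries. For the difference of the combination responses it became 2 with DMSO as the comparator and 2 with the offsets, and 1 each with DESeq2, filterByExpr, complexity as a covariate, no filter, a threshold of 0.05 or without those WT libraries. The causes were not tested. Shares of all tested genes called under these settings, or with single libraries left out, are not given here.

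With each library left out in turn, 8 to 11 members were called between genotypes without treatment and 9 to 12 with DMSO, 1 to 3 after Tpc, 1 to 3 after OL9-119 and 3 to 4 after the combination in WT cells. The lowest count for Tpc came without untreated WT replicate 3 and the highest for OL9-119 without untreated WT replicate 1. The difference of the combination responses gave 0 to 1, the latter without untreated WT replicate 1, and the other comparisons gave 0. SNHG5 and SNHG29 with DMSO each lost the threshold in 6 of 8 such fits.

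Replicate numbers paired the samples weakly at most. Deviations from the group means of same-numbered libraries correlated at a mean r of 0.0359 within WT, 0.0586 within PARP1-KO and -0.00663 between genotypes. The share of same-numbered pairs with r above 0.1 was 0.3 within WT and 0.3 within PARP1-KO cells. For pairs with different numbers it was 0.158 and 0.0917. With the replicate block, the counts were 9 and 13 between genotypes, 3, 2 and 4 after Tpc, OL9-119 and the combination in WT cells, and 0 elsewhere. Low counts limit SNHG10, SNHG4 and the members averaging under 50 counts.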
